A study of Tribolium castaneum with 16 samples.

Results

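In Tribolium castaneum, the red flour beetle, 1683 regions of open chromatin were called in larval CNS and in embryos aged 0 to 24 h and in no other sample, among 45389 merged regions on linkage groups. They were found by FAIRE-seq, which sequences the DNA that stays free of protein when crosslinked, sonicated chromatin is extracted with phenol. To find these regions, the peaks of all 14 deposited lists were merged where they overlapped by 1 bp or more. A region was kept where both CNS lists and both 0 to 24 h lists had a peak and none of the 10 other lists did. The calls in all 14 lists chose the regions, so a statement on where they were called is a description and was not tested, except in lists that were not used to choose.

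The 16 labelled samples comprised 14 FAIRE libraries and 2 genomic inputs, and the inputs were not analysed here. The CNS group was brains of last-instar larvae of the pu11 enhancer-trap strain, fixed for 20 minutes (n = 2). The 0 to 24 h group was whole Georgia I embryos, fixed for 30 minutes (n = 2). The 10 other lists came from whole Georgia I embryos of the later stages, 24 to 48 h and 48 to 72 h (n = 2 each) and from lateral epidermis with the wing discs of the thoracic segments T2 and T3 of pu11 larvae (n = 3 each), all fixed for 30 minutes. Larvae used for epidermis were selected by the activity of the pu11 trap, which the labels do not say of those used for brain. CNS and 0 to 24 h samples thus differed in strain, age, dissection and fixation time, and the effects of these cannot be told apart. Nothing in the labels says that replicates came from separate collections of animals, so p-values concern only these lists. They come from exchanging lists of unlike tissue, stage, strain and length, and do not measure the spread between replicates or animals. Peak lists hold no marker levels, and tissue labels were not checked against them.

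Open chromatin outside nucleosomes is where transcription factors bind enhancers and promoters, and a peak in FAIRE marks such a place without saying which gene it serves. The first day of Tribolium development covers early cleavage, the blastoderm and the laying down of the germband, when head, trunk and neuroectoderm are patterned. The larval brain contains differentiated neurons and glia as well as dividing neural precursors. In a whole embryo or a whole brain, fewer open cells and weaker opening per cell cannot be told apart.

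The regions were narrow and their peaks modest. They had a median width of 241 bp, with quartiles of 202 and 326 bp, against 275 bp over all regions on linkage groups and 412 bp over regions called in the same 4 lists whatever the others showed. Merging over more lists can widen a region, and a wide region more easily meets a peak of another list. The rule thus bears on width, and its part was not tested. The regions covered 477 kb, 2.97% of all merged bases on linkage groups. In each of the 4 lists, between 5.18% and 6.23% of the peaks on linkage groups lay in them.

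Fold enrichment is the authors' ratio of the pileup of reads at a summit to the local background. It entered the rule directly only through the threshold of the peak caller, a q of 0.05. Requiring no call in the 10 other lists can still favour weak peaks, so the low values below are not independent of the rule. How much of them came from the rule was not tested. The median fold over the 1683 regions was 3.23 and 3.96 in CNS replicates 1 and 2. In 0 to 24 h replicates 1 and 2 it was 4.6 and 4.7. All peaks on linkage groups in the same lists had medians of 3.84 and 4.78 in CNS and of 5.87 and 5.71 at 0 to 24 h, so the regions lay below the typical peak of each list. Ranked among the peaks on linkage groups of its list, the median region stood at percentile 34.0 and 33.8 in CNS and at 28.5 and 34.4 at 0 to 24 h. Of the 1683 regions, between 4 and 34, depending on the list, lay above the 90th percentile. In reads, the median pileup at the summit was 43 and 33 extended reads in CNS over a local background of 11.6 and 6.98, and 25 and 32 in 0 to 24 h embryos over 4.36 and 5.55. The median −log10 q was 9.45 and 10 in CNS and 9.47 and 11.8 in embryos, against 15.1 and 15.7 and against 15.8 and 18.3 over all peaks on linkage groups. The smallest of a region's 4 folds had a median of 3.12, against 4.10 over all regions called in these 4 lists, and it exceeded 5 in 83 regions (4.93%), against 33.8% of those.

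**Figure D1:**
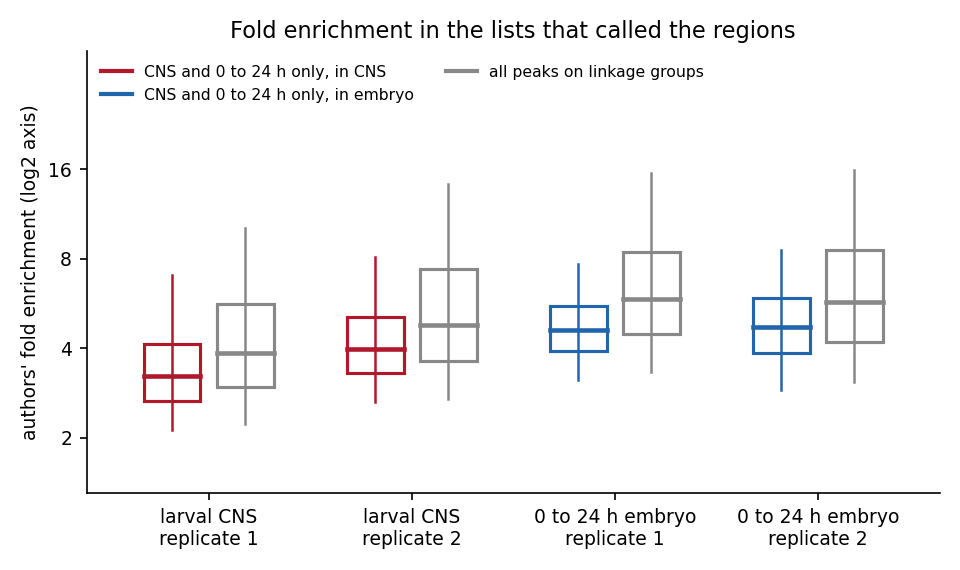
Authors' fold enrichment (log2 axis) in the 2 larval CNS lists and the 2 lists of embryos aged 0 to 24 h. Coloured boxes are the 1683 regions called only in these lists, grey boxes all peaks on linkage groups; boxes span the quartiles, thick lines are medians and thin lines run from the 5th to the 95th percentile. The coloured medians, from 3.23 to 4.7, lie below the grey ones, from 3.84 to 5.87, in each list.

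Most of the regions were single, well-aligned peaks. In 1555 regions (92.4%) each of the 4 lists had 1 peak, and in 1661 (98.7%) the peaks of all 4 lists shared at least 1 base, with a median of 135 shared bases. In the other 22, peaks were joined only through overlaps in a chain. These shares are not given here for all regions called in the 4 lists. Since merging required overlap, shared bases are likely in regions this narrow and are not a trait particular to these. Where a list had several peaks in a region, the one with the largest fold was used for values.

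The summit, the base with the highest pileup in a peak, lay at nearly the same place in brain and early embryo. Its median distance was 17 bp between the 2 CNS lists and 15 bp between the 2 embryo lists. Between a CNS and an embryo list the 4 medians lay from 16 to 20 bp. Summits within 50 bp of each other were found in 78.1% to 83.3% of the regions across tissues, and in 82.4% and 86.3% between CNS and between embryo replicates. Over all regions called in the 4 lists, the shares across tissues were 71.3% to 75.7%, and 81.8% and 83.7% between replicates. Median distances there were 14 bp for both replicate pairs and 18 to 22 bp across tissues. All 4 summits fell within 50 bp in 1047 regions (62.2%), against 57.6% over all regions called in the 4 lists. The median span of the 4 summits was similar, 38 bp against 39 bp. The 1683 regions were narrower, with a median of 241 bp against 412 bp, which limits how far apart summits can lie. The part of width was not tested.

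**Figure D2:**
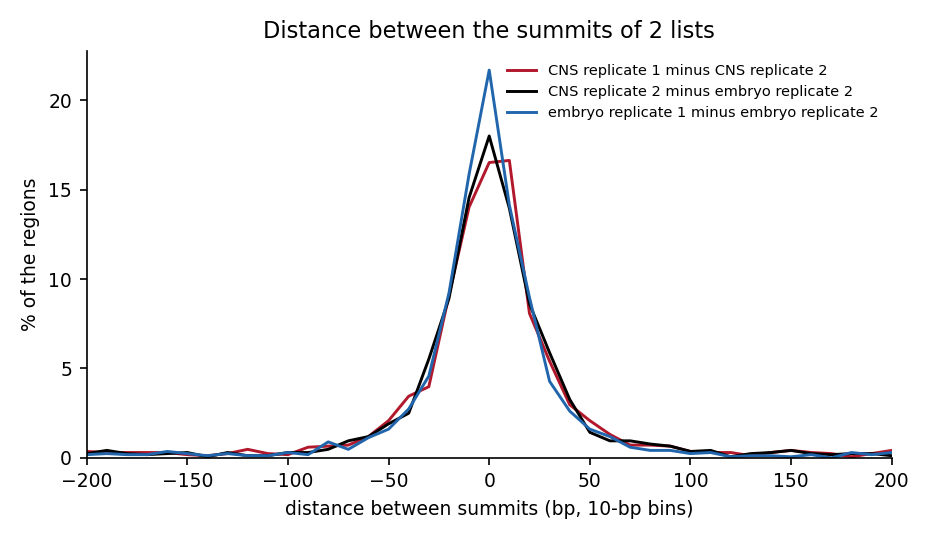
Share of the 1683 regions (%) by distance between summits in 2 lists (bp, in 10-bp bins), for CNS replicates, embryo replicates and CNS replicate 2 against embryo replicate 2. The 3 curves peak at or next to 0 bp and nearly overlie one another, as their medians of 17, 15 and 16 bp show.

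Whether a region's fold in CNS followed its fold in early embryos was described across regions, which are not independent replicates. Spearman's rho of fold was 0.764 between CNS replicates and 0.597 between embryo replicates, and lay between 0.308 and 0.403 for the 4 pairs across tissues (n = 1683 regions each). Over all 19451 regions called in the 4 lists the same values were 0.914, 0.873 and 0.415 to 0.472. Lists of a tissue share their strain and fixation as well as their tissue.

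The order of brain and embryo folds depended on how fold was scaled. Both CNS folds lay above both embryo folds in 183 regions (10.9%), against 14.2% of all regions called in the 4 lists. Both CNS folds lay below both embryo folds in 904 regions (53.7%), against 58.6%, and the folds of 596 regions (35.4%) overlapped. Expressed as a percentile among those peaks of its own list, 528 regions (31.4%) were higher in both CNS lists, against 32.5% of all regions called in the 4 lists, and 422 (25.1%) were lower, against 38.9%. As pileup over background with no pseudocount, 152 regions (9.03%) were higher in both CNS lists, against 11.8%, and 993 (59.0%) were lower, against 61.9%. On fold and pileup, more regions were thus lower than higher in CNS, and on percentile the reverse held. The ratio of mean CNS fold to mean embryo fold had a median of 0.779 and quartiles of 0.639 and 0.962, against a median of 0.726 over all regions called in the 4 lists. Depth moved with tissue here. The background depth, the number of extended reads expected over a base, was 9.85 and 5.91 in the CNS lists and 3.71 and 4.72 in the embryo lists, and its part in these ratios was not tested. The share with the remaining CNS folds above the remaining embryo folds was 18.9% without CNS replicate 1 and 10.3% without CNS replicate 2. It was 21.9% without 0 to 24 h replicate 1 and 18.4% without 0 to 24 h replicate 2. With 2 lists against 2, no exact permutation test could reach a p below 0.05, so no test was made.

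**Figure D3:**
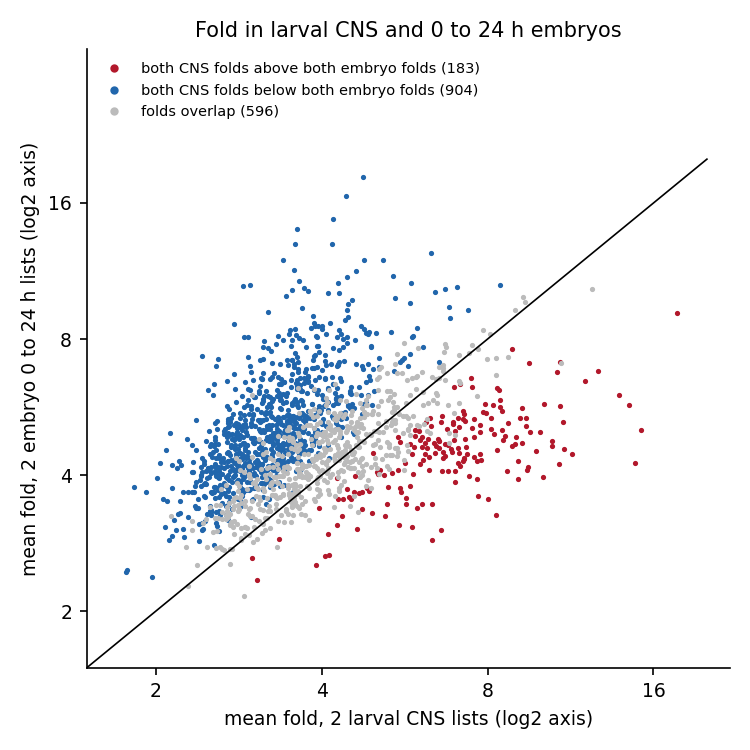
Mean authors' fold in the 2 larval CNS lists (x, log2 axis) and in the 2 lists of embryos aged 0 to 24 h (y, log2 axis) for the 1683 regions, 1 point each; the line marks equal values. The 183 regions with both CNS folds above both embryo folds lie right of the line, the 904 with both below lie left of it, and 596 overlap.

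Single regions differed widely in this order. The largest ratio, 3.48, belonged to a region of 293 bp that ran from 14921504 to 14921796 on ChLG7 and had folds of 13.1 and 16.6 in CNS and 4.59 and 3.92 in 0 to 24 h embryos. Next stood ChLG2 from 12546764 to 12547081, with CNS folds of 13.4 and 17.0 and embryo folds of 4.8 and 5.26. After it came ChLG9 from 18401456 to 18401725, with CNS folds of 10 and 12.7 and embryo folds of 4.89 and 4.02. In all 3, which were picked for this ratio, the brain folds stood well clear of the embryo folds.

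At the other end the embryo folds were several times the brain folds. On ChLG8 from 6040302 to 6040520 the folds were 3.32 and 3.91 in CNS and 13.8 and 14.2 in 0 to 24 h embryos, a ratio of 0.259. On ChLG7 from 19479453 to 19479754 they were 5.53 and 3.99 in CNS and 17.0 and 19.6 in embryos. On ChLG4 from 11512099 to 11512335 they were 3.78 and 5.07 in CNS and 15.9 and 17.3 in embryos. In all 6 of these regions the brain and embryo folds did not overlap, which follows largely from picking them by extreme ratios.

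The 10 regions whose smallest fold was highest lay between percentiles 77.2 and 98.9 of their CNS lists and between 64.7 and 88.4 of their 0 to 24 h lists. The first, 418 bp on ChLG7 from 13875718 to 13876135, had folds of 11.5 and 13.2 in CNS and 8.68 and 12 in 0 to 24 h embryos. The second, 314 bp on ChLG3 from 3052549 to 3052862, had folds of 14.4 and 20.9 in CNS and 8.49 and 9.79 in embryos. Next in order, 265 bp on ChLG2 from 14157878 to 14158142, had folds of 8.11 and 10.4 in CNS and 9.13 and 10.7 in embryos. In the ChLG7 and ChLG2 regions brain and embryo folds overlapped, and in the ChLG3 region both CNS folds were higher.

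The next 3 lay on ChLG1 from 3569486 to 3569808, on ChLG5 from 13485483 to 13485863 and on ChLG2 from 8779212 to 8779424. Their folds ran from 7.74 to 10.7 in CNS and from 8.07 to 11 in embryos. The last 4 lay on ChLG9 from 19941198 to 19941609, ChLG8 from 8029401 to 8029647, ChLG5 from 9965229 to 9965480 and ChLG8 from 10015160 to 10015644. Their folds ran from 7.01 to 8.69 in CNS and from 7.09 to 9.96 in embryos. Summits of the 4 lists fell within 63 bp of each other in 9 of the 10, and in the last they spanned 316 bp. When only the best 50% of each list was kept, all 10 retained the pattern, and likewise after all lists were thinned to one depth. At equal list sizes 4 of the 10 did. These settings only removed peaks and the 10 were picked for high folds, so keeping the pattern follows in part from that choice.

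Values close to the limits of the rule show how thin these could be. The region with the smallest fold inside the rule, ChLG7 from 2288463 to 2288648, had folds of 1.48 and 2.07 in CNS and 2.54 and 2.39 in embryos. Another at that limit, ChLG8 from 8441673 to 8441952, had 1.48 and 3.23 in CNS and 3.53 and 4.03 in embryos. The next, ChLG3 from 14182220 to 14182639, had 1.55 and 2.52 in CNS and 4.94 and 3.56 in embryos. CNS replicate 1, the deepest list, was the one with the low fold in all 3. The region just outside with the weakest additional peak, ChLG2 from 13778544 to 13778729, had 2.62 and 3.69 in CNS and 3.45 and 4.53 in embryos. It was left out for a peak in T3 replicate 3 with a fold of 1.88 and a −log10 q of 1.32. The next such region was ChLG2 from 12341193 to 12341553, with 3.87 and 5.3 in CNS, 6.45 and 7.03 in embryos and 2.01 in T3 replicate 1. After it came ChLG9 from 16649730 to 16650406, with 3.54 and 2.81 in CNS, 5.55 and 5.38 in embryos and 2.09 in T3 replicate 3.

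Of 45389 regions on linkage groups, 19451 (42.9%) were called in both CNS and both 0 to 24 h lists, and the 1683 called nowhere else were 8.65% of these and 3.71% of all regions. The 10 other lists called the rest in all numbers from 1 (1667 regions) to 10 (3148 regions). Width and fold were lowest at 0 and highest at 10, though not in strict order between. The smallest fold had a median of 3.12 in regions called in no other list, 3.32 with 1 other, 4.15 with 4 others, 4.03 with 5 and 6.02 with all 10. Median width in the same order was 241, 283, 491, 402 and 536 bp. A region called in more lists is merged from more peaks, which can widen it.

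**Figure D4:**
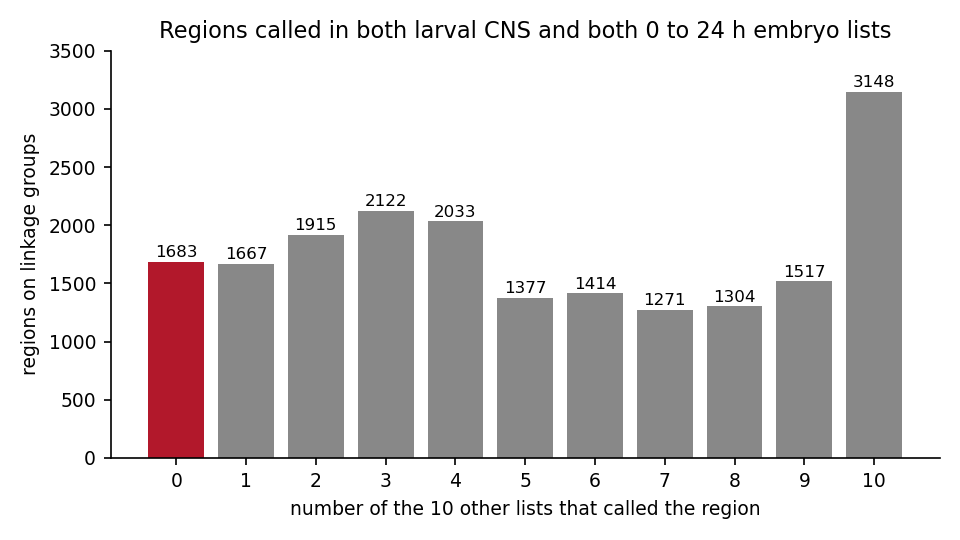
Number of regions on linkage groups called in both larval CNS and both 0 to 24 h embryo lists (y), by how many of the 10 other lists also called them (x). The red bar is the 1683 regions called in none, next to 1667 called in 1 and 3148 called in all 10.

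Regions that missed the pattern by 1 list most often did so at 24 to 48 h, through replicate 2 above all. Of the 1667 called in the 4 lists and 1 more, 1088 (65.3%) had their additional peak at 24 to 48 h, 848 of them in replicate 2 and 240 in replicate 1. Over all regions of the 4 lists, these lists called 73.4% and 61.0%, the highest shares among the 10. Without replicate 2, 43.0% of the 2241 regions then called in 1 other list had it at 24 to 48 h. A further 231 had it in 48 to 72 h replicate 1 and 11 in replicate 2, and the 6 epidermis lists together had 337, of which 167 were in T3 replicate 1. These additional peaks were weak in their own lists, with median −log10 q from 2.86 to 5.67 against 7.57 to 10.8 over all peaks on linkage groups there. In the other direction, 1736 regions were called in 3 of the 4 lists and nowhere else. The missing list was CNS replicate 1 in 584, CNS replicate 2 in 247, 0 to 24 h replicate 1 in 674 and 0 to 24 h replicate 2 in 231.

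Among the 15 pairs of groups, the regions called in all lists of the pair and in no others were most numerous for CNS with 0 to 24 h embryos, at 1683. T2 with T3 epidermis had 179, CNS with T3 had 98, 0 to 24 h with 24 to 48 h embryos had 95, and each of the 11 other pairs had at most 11. These 2 groups also held the longest lists, and pairs with epidermis needed a peak in 5 or 6 lists. After all lists were thinned to the depth of the shallowest, the count for CNS with 0 to 24 h embryos was 842, still the highest, with 204 for T2 with T3 next. In the best 50% of each list it was 619, again the highest. At equal list sizes, the 9725 best peaks of each list, it was 52 and ranked 5 of 15, with T2 and T3 first at 667. The 52 were mostly other regions, since 6 of the 1683 overlapped them, and 61 overlapped the 619.

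All 10 other lists were shallower than both CNS lists, and what their depth would have allowed was computed region by region. The pileup and local background of each region were scaled down to the depth of each other list, or kept as measured where that list was the deeper one, as T2 replicate 2 and the T3 lists were for 1 or both of the 0 to 24 h lists, and the resulting p was set against the weakest p called in that list. At the depths of the T2 replicate 2 and 3 lists and the T3 lists, from 3.59 to 5.77 reads per base, between 88.7% and 98.3% of the regions would have passed on all 4 of their peaks. Over all regions called in the 4 lists it was 96.1% to 99.4%. At the depths of T2 replicate 1 and the 24 to 48 h and 48 to 72 h lists, from 1.89 to 2.53, the share was 48.4% to 64.5%. Over all regions called in the 4 lists it was higher, 77.7% to 86.2%. In the 1683 regions, the embryo peaks alone would have passed in 94.0% to 98.3% there, and the CNS peaks alone in 49.8% to 64.9%. Over all regions called in the 4 lists these shares were 98.7% to 99.7% and 78.3% to 86.4%. Of the 1683 regions, 814 (48.4%) would have passed on all 4 peaks at all 10 depths, and 29 at none. These 2 counts are not given here for all regions called in the 4 lists. For comparison, regions called in the 4 lists that would have passed were in fact called in 33.2% (T2 replicate 1) to 76.5% (24 to 48 h replicate 2) of cases. The scaling takes each fold as measured in a called peak. Thinning also started from called peaks, so neither shows what equal depth would have called. The part of depth in the missing calls was not tested.

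Whether the pattern recurred in lists that did not choose the regions was asked by choosing on the 6 lists with replicate number 1 alone. This gave 3941 regions called in CNS and 0 to 24 h replicate 1 and in none of the 4 other lists. Replicate 2 called 88.4% of them in CNS and 90.6% in 0 to 24 h embryos, against 70.3% and 67.7% of all merged regions. The next embryonic stage stood between, with 30.5% called in 24 to 48 h replicate 2, against 41.0% of all regions. The 48 to 72 h replicate 2 list called 1.80%, against 20.2%, and the 4 epidermis lists of replicates 2 and 3 called 4.87% to 6.98%. Of all regions, these epidermis lists called 36.8% and 37.1% (T2) and 38.8% and 40.1% (T3).

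Relative to the share of all regions, the CNS and 0 to 24 h lists called 20.5 ± 3.37 percentage points more (SD, n = 2). The 6 other lists called 26.3 points fewer (SD 9.55, n = 6), each of them below 0. The difference was 46.8 points (exact permutation p = 0.0357, one-sided, adjusted p = 0.0357 over 2 such tests), which is the lowest p possible with 28 ways to take 2 of 8 lists. Chosen on the replicate 2 lists instead, 4989 regions gave 77.6% in CNS replicate 1 and 76.5% in 0 to 24 h replicate 1, against 71.6% and 64.2% of all regions. The 24 to 48 h and 48 to 72 h lists called 12.1% and 12.3%, against 34.6% and 33.2%. T2 replicates 1 and 3 called 0.321% and 5.63%, against 18.1% and 39.8%, and T3 replicates 1 and 3 called 12.6% and 6.41%, against 43.9% and 44.2%. The difference was 36.6 points (exact permutation p = 0.0357, one-sided, adjusted p = 0.0357). The full pattern, in the 2 remaining lists and in none of the 6 others, recurred in 45.0% and 34.9% of the chosen regions, against 10.6% and 8.53% of all merged regions, the chosen ones included. This test was added after the data were seen, and its pattern was taken from all lists, the tested ones included. The tested CNS and 0 to 24 h lists were replicates of the groups used to choose. They were also longer than the 6 others, so the lists compared differed in more than tissue and p cannot tell these apart. A difference in this direction was thus likely in advance, and p at its lowest value is not independent support for the pattern. The adjustment left the 2 equal p-values as they were. Without 0 to 24 h replicate 1, choosing on replicate 1 rested on CNS alone, and the difference was 16.9 points (exact permutation p = 0.0714, one-sided), although 2 lists against 6 remained to be compared. Without CNS replicate 2, choosing on replicate 2 gave 23.0 points at p = 0.0357 (exact permutation, one-sided).

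**Figure D5:**
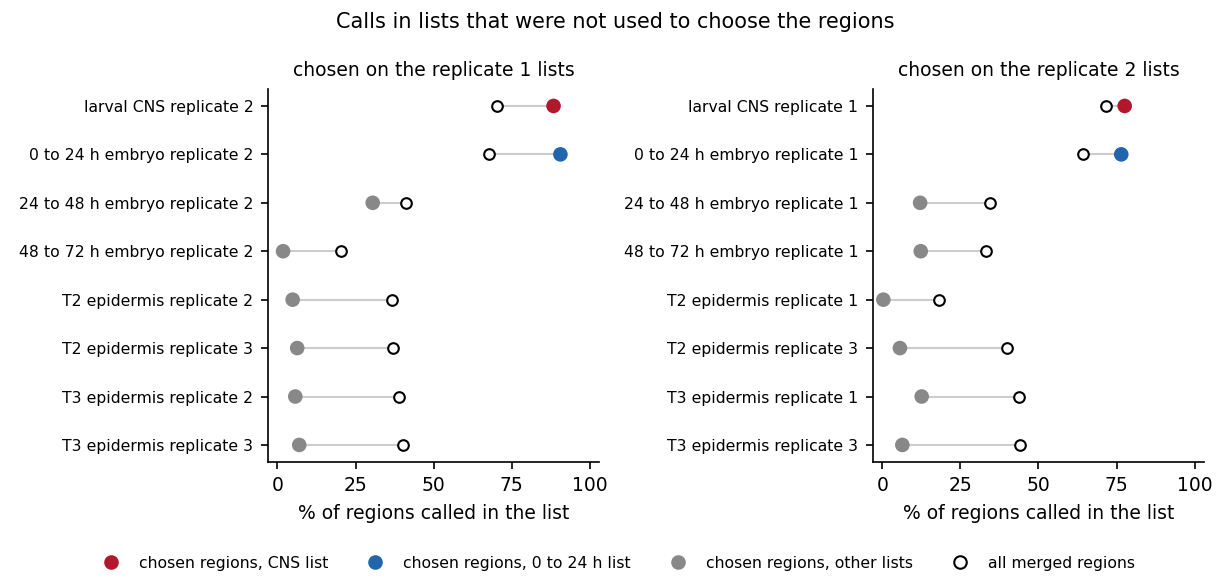
Share of regions (%) called in 8 lists that were not used to choose them, after choosing on the replicate 1 lists (left) or the replicate 2 lists (right). Filled points are the chosen regions and open points all merged regions; filled points lie right of open ones in the CNS and 0 to 24 h lists and left of them in the 6 others.

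The 3 nearest patterns differed from this one in width and strength. Regions called in CNS alone numbered 2314, with a median width of 209 bp, and regions of 0 to 24 h embryos alone 1480, with 181 bp. Those called in CNS, 0 to 24 h and 24 to 48 h embryos alone numbered 723, with 323 bp. In CNS, the median percentile of fold was 34.0 and 33.8 in the 1683 regions, 56.4 and 36.4 in CNS-only regions, and 48.0 and 50.1 where 24 to 48 h embryos were also called. In 0 to 24 h embryos it was 28.5 and 34.4 in the 1683 regions, 25.7 and 29.2 in regions of that stage alone, and 59.2 and 63.2 with 24 to 48 h. No test was made of these differences, since calls chose all of these classes. The classes were also merged from different numbers of lists, which bears on width.

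The regions were spread over all 10 linkage groups, where they made up 2.69% (ChLG3) to 4.64% (ChLG1, the X in this species) of the merged regions. As a share of regions called in the 4 lists they ranged from 6.88% on ChLG3 to 10.2% on ChLG1. ChLG5 held the most, 240. Median folds by linkage group ran from 2.86 to 3.51 in CNS replicate 1 and from 4.46 to 4.88 in 0 to 24 h replicate 1.

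Most of the regions had other open chromatin nearby, as did the regions of 0 to 24 h embryos alone. The gap to the nearest other region had a median of 360 bp, against 578 bp over all regions on linkage groups, and 1193 of the 1683 (70.9%) had a neighbour within 1 kb, against 61.8%. In regions of 0 to 24 h embryos alone the median gap was 378 bp, and 73.0% had a neighbour within 1 kb. A region called in any of the 10 other lists lay within 500 bp of 637 (37.8%), against 39.1% of the regions of 0 to 24 h embryos alone and 34.2% of all. A region called in all 14 lists lay within 1 kb of 92 (5.47%), against 4.72%. Without those that had a peak of the 10 other lists within 500 bp, 1046 regions were left.

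Some stretches held several of these regions. The most within 50 kb was 8, reached in 3 stretches. These were picked as the densest, and whether they held more than other classes would was not tested. Over all linkage groups, 3.71% of merged regions had the pattern. Of the 1683 regions, 37.8% had another of them within 10 kb. The same share was 46.8% for regions of CNS alone, 39.9% for 0 to 24 h embryos alone and 20.9% where 24 to 48 h embryos were also called. These classes differ in size, which bears on the share. On ChLG5 from 12808560 to 12843607, 8 of 32 merged regions had the pattern, none was called in all 14 lists, and the smallest folds of the 8 ran from 2.15 to 4.00. On ChLG5 from 14991112 to 15033267 it was 8 of 33, with smallest folds from 1.91 to 3.48. On ChLG8 from 15883579 to 15926232 it was 8 of 39, with 28 called in the 4 lists and smallest folds from 2.32 to 3.91. Folds within a stretch were not uniform. In the first, the region from 12828469 to 12828793 had folds of 4 and 5.37 in CNS and 4.5 and 4.06 in embryos. The region from 12830863 to 12831113 had the lowest smallest fold of that stretch, with 2.15 and 3.26 in CNS and 3.47 and 3.01 in embryos. In the second stretch, the region from 14991112 to 14991411 had folds of 3.59 and 3.48 in CNS and 5.09 and 10.8 in embryos. At the far end, the region from 15032983 to 15033267 had 4.57 and 6.46 in CNS and 3.24 and 2.97 in embryos. The embryo folds were higher at the first of these and lower at the other, with 1 of the 33 regions of the stretch called in all 14 lists. In the stretch on ChLG8, the region from 15921067 to 15921251 had the highest smallest fold, with 3.91 and 5.79 in CNS and 5.97 and 6.08 in embryos.

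The widest region, 940 bp on ChLG2 from 13069010 to 13069949, had folds of 2.65 and 2.68 in CNS and 5.24 and 4.63 in embryos, with summits up to 464 bp apart. Local background was above the genome-wide value in 71.8% of the 1683 regions, against 73.3% of all regions on linkage groups. It was more than 2 times that value in 107 (6.36%), against 17.6% of all regions on linkage groups and 58.1% of those called in all 14 lists. The nearest patterns had similar or lower shares, so this is not particular to the 1683 regions. The share was 5.53% for CNS alone, 4.05% for 0 to 24 h embryos alone and 2.63% where 24 to 48 h embryos were also called. For all embryos and CNS without epidermis it was 6.01%.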

How the data were processed

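Peak lists of 14 FAIRE libraries were analysed. The authors deposited 1 list per library, in which each peak has a fold enrichment ratio and a p-value and a q-value, both on a −log10 scale. The smallest deposited −log10 q was between 1.30 and 1.36. The submitters' processing notes name Trimmomatic 0.32, Bowtie2 2.2.3, SAMtools 0.1.12a, deepTools 2.5.2 and MACS2 2.1.1.20160309, without their roles. The genome build and control library are not given in the sources used here. The deposited score column repeats −log10 q and the deposited summit offset gave summit positions.

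Coordinates are those of the lists, counted from 1. Genes, motifs and sequences were not analysed here. Python 3.11.15, numpy 2.4.6, scipy 1.17.1 and pandas 2.3.3 were used. The number of reads is unknown. Pileup and background at each summit were solved from fold, (pileup + 1) / (background + 1), and the Poisson p, and were whole within 0.02 for 323086 of 323093 peaks. The smallest background in a list was its depth, from 1.89 to 9.85. Merging and recovery were tested on simulated data. Groups and replicate numbers came from sample titles. Named regions were the 10 with the largest smallest fold, 3 at each end of the ratio of mean folds, the widest, those in the densest 50-kb stretches and those nearest the limits of the rule. The regions, rules and alternatives were chosen with earlier results of these data known. Alternatives were other merging, thresholds, depths and left-out lists.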

Additional observations from a re-analysis of the deposited data

How the results depend on the processing

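No paired analysis was possible because the counts come from no test, and the exact test chose regions on one replicate number and counted calls under the others. The labels do not say what a replicate number marks. The number of regions was 1683, and was within 1.5 times of that in 19 of 24 settings. It was 619 in the best 50% of each list, 52 at equal list sizes, 842 after thinning to the shallowest list and 1046 with no peak of the other lists within 500 bp, a setting chosen after seeing the data. Leaving out each list gave 1685 to 2532, with 2532 without 24 to 48 h replicate 2. Of the 842 after thinning, 89.2% overlapped the 1683 regions, 44.6% of which were kept. The median smallest fold was 5.35 in the best 50% and 7.43 at equal list sizes, and 3.09 to 3.50 with a list left out. The share with both CNS folds above both embryo folds was 10.9%. No interval is given, since the regions come from the same 4 lists and are not independent replicates. It was 9.21% in the best 50%, 3.85% at equal list sizes, 15.0% after thinning, 8.40% where peaks covered at least 50% of a region, 31.4% by percentile, 9.03% as pileup over background without a pseudocount, and 10.3% to 21.9% with a list left out (21.9%, 18.4% and 18.9% without 0 to 24 h replicate 1, 0 to 24 h replicate 2 and CNS replicate 1). The test in lists that were not used to choose kept p below 0.05 in 21 of 24 settings chosen on replicate 1 and in 22 of 24 on replicate 2, with differences of 16.9 to 50 and of 23.0 to 39.7 points when a list was left out. Each p below 0.05 was the lowest its setting allowed, 0.0357 or 0.0476 (exact permutation, one-sided), so these counts do not measure strength. The exceptions all left out a CNS or 0 to 24 h list, with exact p of 0.0714 to 0.143, one-sided. Where p was 0.143, 1 list was set against 6 and no lower p was possible, so those settings could not have passed. Without 0 to 24 h replicate 1, choosing on replicate 1 rests on CNS alone and gave 16.9 points. Planned motif and gene-position counts were not run, since no genome of the lists' assembly was used here.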
